A study of Homo sapiens with 4 samples.

Results

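The genes described here are 52 genes for collagens, laminins, other matrix proteins and the integrins that bind them, chosen by name from the 60483 gene entries of each library. Of these, 50 had enough reads to be tested, among 19027 genes tested in all, and VTN and ITGB3 did not. The RNA came from H9 (WA09), a widely used line of human embryonic stem cells. The 2 groups were control H9 cells and H9 cells in which SLC35F2, a membrane transporter of the solute carrier class, had been knocked out, and each group had 2 libraries, called control 1, control 2, KO 1 and KO 2. The labels give no growth substrate, no way of making the knockout and no clone, and leave it unsaid if replicates were grown as separate cultures, so p-values measure only the spread between these libraries, which may be technical.

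Basement membranes are sheets of matrix under epithelial cells. Laminin trimers, each made of an alpha, a beta and a gamma chain, and collagen IV trimers form the networks of the sheet, and nidogens and the proteoglycans perlecan and agrin join them. Integrins are cell surface receptors made of an alpha and a beta chain, which bind laminins, collagens, fibronectin or vitronectin and connect them to the actin skeleton. Human pluripotent stem cells grow as epithelial colonies and are commonly cultured on laminin-rich or vitronectin-coated surfaces. Fibrillar collagens, by contrast, are best known as products of fibroblasts and other mesenchymal cells.

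Levels are given as CPM, read counts divided by the scaled size of the library, always in the order control 1, control 2, KO 1 and KO 2. Where levels of different genes are compared, they are given per length, as RPKM, which is CPM per kilobase of exon. Assigned reads ranged from 27824693 to 37978705 per library. SLC35F2 itself was at 41.1, 27.1, 12.1 and 9.65 CPM, so both KO libraries were below both controls, and its log2 fold change (KO minus control) was -1.65 ± 0.35 (SE). Its adjusted p was 0.58 in edgeR's quasi-likelihood test with Benjamini-Hochberg adjustment over all genes tested, 0.00843 in DESeq2 and 0.00736 with the replicate number as a block.

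None of the 50 tested matrix and integrin genes passed an adjusted p of 0.05 between KO and control, where 5 of all 19027 genes (0.0263%) did. Their adjusted p-values lay between 0.997 and 0.9997 in edgeR's quasi-likelihood test. At an unadjusted p under 0.05 there was 1 of the 50 (2%), COL6A3, against 4.06% of all genes tested. DESeq2 and the fit with a replicate block also called 0 of the 50, against 0.315% and 0.399% of all genes tested. Of the 50, 11 (22%) had both KO libraries below both control libraries, against 16.3% of all genes tested. These were COL12A1, COL6A3, COL18A1, LAMA1, LAMA5, LAMB3, LOX, TIMP3, ITGA1, ITGB1 and CD44. Their number was 16 with a correction for GC content and length, 13 with library size alone and 10 when only genes averaging 1 CPM or more were kept. Only LAMB2 and ITGA6, 2 of the 50 (4%), were higher in both KO libraries, against 15.8% of all genes tested. That number was 0 with upper-quartile scaling and 1 with library size alone, with quantile normalisation, with a correction for GC content and length, or when only genes averaging 1 CPM or more were kept. For these other settings the share over all genes is not given, so their counts are not a result about these genes. With the main settings, the groups overlapped in the other 37 genes. The median log2 fold change over the 50 was -0.14, with 31 negative and 19 positive values. Over all genes tested the median was 0.03 and 47.2% were negative. Leaving out 1 library moved the median of the 50 to -0.24 without control 1, 0.044 without control 2, 0.0028 without KO 1 and -0.47 without KO 2.

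The precision behind these values was limited. For 21 of the 50 genes the 95% interval of the fold change stayed within 2-fold in both directions, and for the other 29 it reached past 2-fold. Among those within 2-fold was that of ITGA6, which ran from -0.45 to 0.70 on the log2 scale. The widest belonged to COL1A1, from -3.004 to 3.97.

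**Figure D1:**
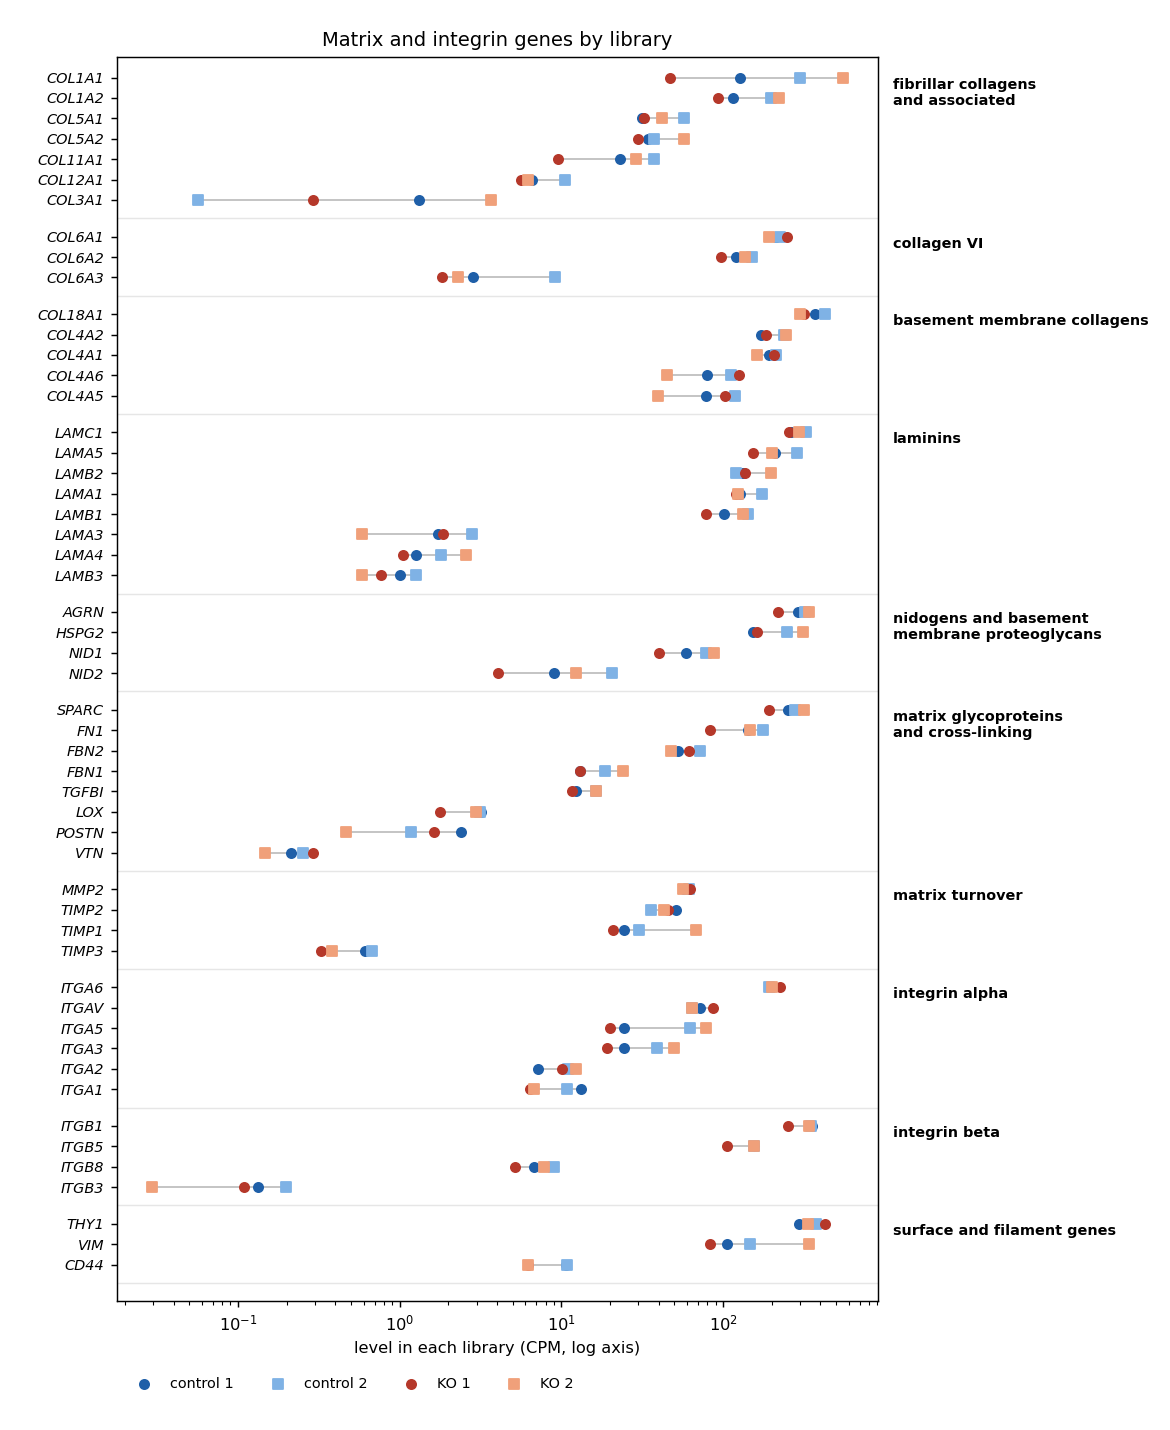
Level of each of the 52 genes in each library (CPM, log axis), grouped by class. Points are single libraries and the grey line joins the lowest and the highest. COL1A1, VIM and TIMP1 are highest in KO 2, and for CD44 and ITGA1 both KO libraries lie below both controls.

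Among the fibrillar collagens and the collagens that associate with them, no gene passed the test between KO and control, and for COL1A1, COL1A2 and COL5A2 the 2 KO libraries were the lowest and the highest of the 4. COL1A1, the alpha 1 chain of collagen I, the main collagen of skin and bone, was on average the class's most abundant gene per length. It had 4822, 10674, 1286 and 18866 reads, which is 128, 300, 46.8 and 552 CPM. KO 1 was thus the lowest library, KO 2 the highest, KO 2 was 11.8-fold above KO 1, and the log2 fold change was 0.48 ± 1.24 (SE). Without KO 1 the log2 fold change was 1.38 (adjusted p 0.00369, edgeR), and without KO 2 it was -2.19 (adjusted p 2.18e-05, edgeR), each time on the assumption that the lone KO library varies like the controls. The gene lies at chr17:50183289-50201632 on GRCh38.

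Its partner COL1A2, the other chain of collagen I, moved less, with 116, 198, 93.6 and 221 CPM. The ratio of COL1A1 to COL1A2, both per length, was 1.26, 1.72, 0.568 and 2.84, so the proportion of the 2 chains differed most between the 2 KO libraries. COL11A1, a minor fibrillar collagen of cartilage, was at 23.2, 37.5, 9.60 and 28.98 CPM. KO 1 was its lowest library, and its log2 fold change of -0.65 ± 0.51 (SE) became -1.66 without KO 2 (adjusted p 0.0102, edgeR). COL3A1, the collagen that accompanies collagen I in soft tissue, was scarce and scattered, at 50, 2, 8 and 125 reads or 1.32, 0.0563, 0.291 and 3.66 CPM. Its log2 fold change was 2.38 without KO 1 (adjusted p 0.00703, edgeR), -1.26 without KO 2 and 5.09 without control 1. COL5A1 and COL5A2, chains of the collagen V that nucleates fibrils, stayed between 29.8 and 57.7 CPM in all libraries. COL12A1, which binds the surface of fibrils, was at 6.57, 10.6, 5.60 and 6.26 CPM, and its KO values lay just below the lower control. The summed level of the 7 genes was 340, 642, 218 and 911 CPM.

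Collagen VI forms beaded filaments near the cell surface from COL6A1, COL6A2 and another chain, often COL6A3. The former were abundant and overlapped between the groups: COL6A1 was at 212, 224, 248 and 193 CPM and COL6A2 at 121, 150, 97.1 and 136 CPM. COL6A3 (chr2:237324003-237414375) was far scarcer, at 2.86, 9.12, 1.82 and 2.31 CPM. Both of its KO values lay below both controls, but control 2 stood far above the other 3 libraries. Its log2 fold change was -1.52 ± 0.64 (SE; 95% interval -2.98 to -0.07). In edgeR its p was 0.0423 before adjustment and 0.997 after it. Without control 2 it was -0.47. Per length, COL6A1 averaged 41.1 and COL6A3 0.205 RPKM.

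Collagen IV, the collagen of basement membranes, was represented by its COL4A1, COL4A2, COL4A5 and COL4A6 chains, and COL18A1 encodes the collagen whose end fragment is endostatin. The collagen IV genes lie in pairs that are transcribed away from each other from a shared start region, COL4A1 with COL4A2 on chromosome 13 and COL4A5 with COL4A6 on the X chromosome. Both regions are shown because the members of each pair could be followed side by side in the 4 libraries. The sequences come from RefSeq's GRCh38.p14, whose promoter table held 40 of the 52 genes, and are printed on the plus strand. Capitals mark the motifs CCAAT and GGGCGG, read on either strand, so that CCAAT on the minus strand appears as its reverse complement. The first is the whole stretch between the starts of COL4A1 and COL4A2 (chr13:110307158-110307283), and the second is the 250 bases before the start of COL4A5 (chrX:108439588-108439837), out of 379 bases between the starts of COL4A5 and COL4A6.
COL4A1-COL4A2 interval: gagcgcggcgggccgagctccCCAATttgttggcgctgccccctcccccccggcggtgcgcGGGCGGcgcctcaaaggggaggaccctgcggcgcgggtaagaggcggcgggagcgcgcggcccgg
COL4A5 upstream: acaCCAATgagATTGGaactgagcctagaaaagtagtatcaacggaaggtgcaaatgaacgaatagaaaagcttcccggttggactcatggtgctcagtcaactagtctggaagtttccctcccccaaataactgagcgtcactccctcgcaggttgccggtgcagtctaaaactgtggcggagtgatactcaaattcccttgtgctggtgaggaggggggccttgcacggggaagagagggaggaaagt
The COL4A1-COL4A2 interval of 126 bases is 80.2% GC and holds 1 CCAAT, 1 GGGCGG and 0 TATAAA. The COL4A5 upstream stretch is 51.2% GC and holds 2 CCAAT, 0 GGGCGG and 0 TATAAA. Among the last 126 bases before the start of all 35116 promoters in the table, 21.1% hold CCAAT, 34.6% GGGCGG and 5.87% TATAAA, and the median GC content is 60.3%. For 250 bases these are 32%, 42.6%, 10.7% and 58%. All motifs were searched on both strands.

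KO 2 was the lowest library for both COL4A5 and COL4A6, while COL4A5 was highest in control 2 and COL4A6 in KO 1. COL4A5 (chrX:108439844-108697545) was at 78.8, 119, 104 and 39.4 CPM, and COL4A6 (chrX:108155607-108439497) at 79.6, 112, 126 and 44.8 CPM. The ratio of COL4A6 to COL4A5 per length stayed between 1.201 and 1.55, whereas COL4A5 itself differed 2.63-fold between the KO libraries. Neither was called with all 4 libraries. Without KO 1, COL4A5 had a log2 fold change of -1.31 (adjusted p 0.0167, edgeR) and COL4A6 one of -1.08 (adjusted p 0.0625, edgeR), while without KO 2 they were at 0.07 and 0.40.

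In the other pair, KO 2 was the lowest library for COL4A1 and the highest for COL4A2. COL4A1 was at 194, 214, 206 and 161 CPM and COL4A2 at 171, 238, 184 and 244 CPM. The ratio of COL4A2 to COL4A1 per length was 0.676, 0.848, 0.682 and 1.16, so it was highest in KO 2. COL18A1 was the most abundant of the class per length, at 41.3 RPKM. It was at 370, 425, 316 and 298 CPM, with both KO libraries below both controls and a log2 fold change of -0.37 ± 0.25 (SE; 95% interval -0.94 to 0.20). Of its exon bases, 16.4% overlap SLC19A1 on the opposite strand.

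**Figure D2:**
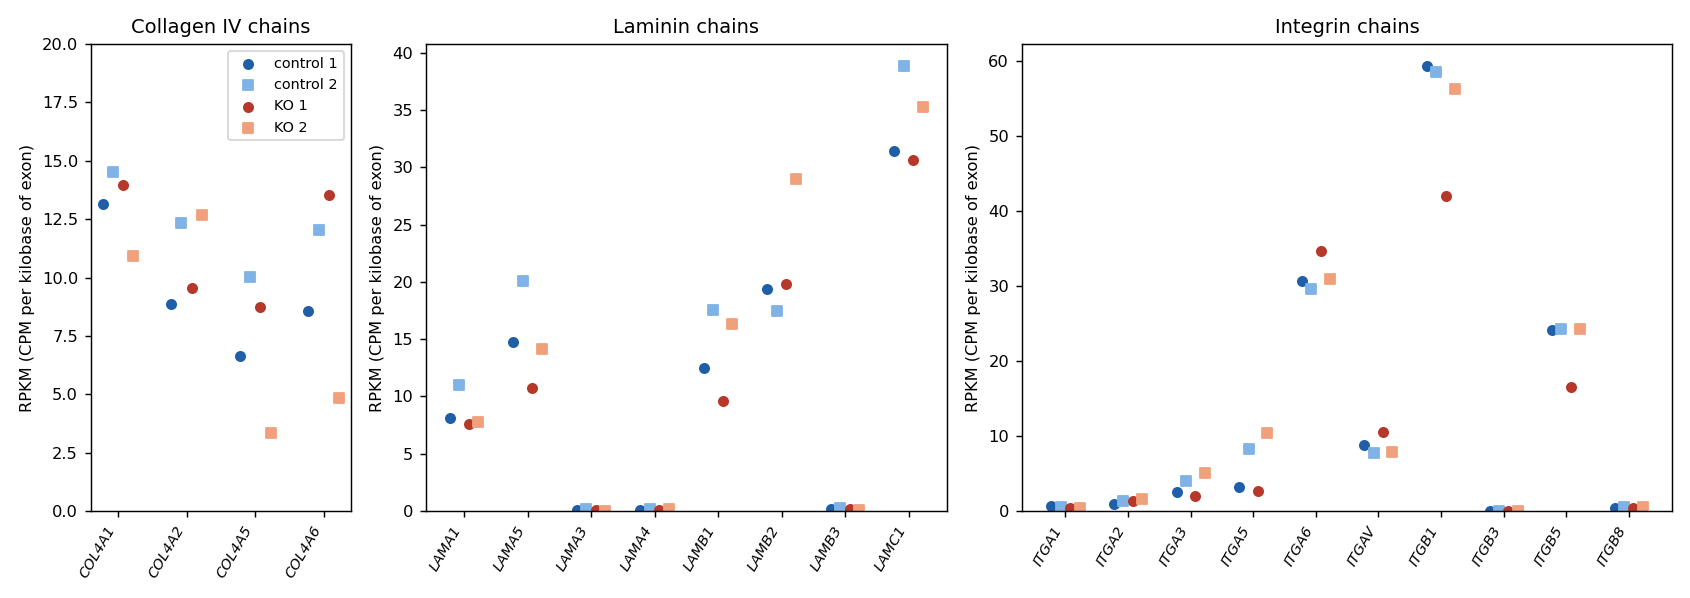
Level per length (RPKM) of the collagen IV, laminin and integrin chains in each library. COL4A5 and COL4A6 are lowest in KO 2, LAMC1 is the highest laminin chain in every library, and ITGB1 is the highest integrin chain in every library.

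Of the laminin chains, LAMC1, LAMA1, LAMA5, LAMB1 and LAMB2 were abundant, and LAMA3, LAMA4 and LAMB3 were scarce. LAMC1, the gamma chain shared by most laminins, was the highest per length, at 34.0 RPKM on average, followed by LAMB2 at 21.4, LAMA5 at 14.9, LAMB1 at 14.0 and LAMA1 at 8.63. LAMC1 was above all other laminin chains in every library, and from LAMB2 on, neighbours in this order overlapped. LAMA3, LAMA4 and LAMB3 averaged 0.118, 0.145 and 0.193. LAMC1 itself was at 264, 326, 257 and 296 CPM, with overlapping groups.

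The alpha chains LAMA5 and LAMA1 were lower and the beta chain LAMB2 higher in both KO libraries, none of them past the test. LAMA5, an alpha chain typical of the laminins on which human pluripotent stem cells attach, was at 211, 287, 153 and 202 CPM. Both KO libraries were below both controls, KO 2 by a narrow margin, and the log2 fold change was -0.49 ± 0.29 (SE; 95% interval -1.14 to 0.16). LAMA1, an alpha chain of the early embryo, was at 128, 175, 121 and 124 CPM. It was also lower in both KO libraries, but by a narrow margin to control 1. Without control 2 its log2 fold change was -0.07. The beta chain LAMB2 was at 133, 120, 136 and 199 CPM, higher in both KO libraries by a narrow margin in KO 1, with a log2 fold change of 0.41 ± 0.28 (SE; 95% interval -0.24 to 1.05). The other main beta chain, LAMB1, was at 101, 143, 78.3 and 133 CPM, with overlapping groups. The ratio of LAMB2 to LAMB1 per length was 1.55, 0.995, 2.06 and 1.77, so both KO ratios were above both control ratios. No test of this ratio was made. The ratio of LAMA5 to LAMA1 was 1.83, 1.82, 1.41 and 1.81.

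Nidogens and the proteoglycans that join the laminin and collagen IV networks overlapped between the groups in all 4 genes. AGRN, agrin, was the most abundant per length and was at 292, 320, 220 and 339 CPM. HSPG2, perlecan, was at 154, 250, 163 and 311 CPM, so control 2 and KO 2 were both well above the other 2 libraries. NID1 was at 59.0, 78.9, 40.2 and 88.5 CPM. NID2 was at 8.96, 20.7, 4.04 and 12.3 CPM, lowest in KO 1, with a log2 fold change of -0.85 ± 0.59 (SE). Without KO 2 it was -1.87 (adjusted p 0.0192, edgeR). NID2 shares 30.0% of its exon bases with RTRAF on the opposite strand, and whether the counting used strand is not given in the sources used here.

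Matrix glycoproteins were led by SPARC, a collagen-binding protein, at 251, 280, 192 and 317 CPM and 53.9 RPKM on average. FN1, fibronectin, the ligand of ITGA5 with ITGB1, was at 143, 177, 82.7 and 148 CPM. KO 1 was its lowest library, KO 2 lay between the controls, and the log2 fold change was -0.47 ± 0.33 (SE; 95% interval -1.22 to 0.27). FBN1 and FBN2, the fibrillins of elastic microfibrils, differed in order: FBN2 was at 52.6, 71.8, 61.3 and 47.6 CPM and FBN1 at 13.1, 18.8, 13.1 and 24.2 CPM. The ratio of FBN2 to FBN1 per length was 4.90, 4.66, 5.70 and 2.39, lowest in KO 2. POSTN, periostin, was scarce at 2.38, 1.18, 1.64 and 0.468 CPM, with a log2 fold change of -0.82 ± 0.71 (SE). LOX, the enzyme that cross-links collagen, was at 3.18, 3.15, 1.78 and 2.95 CPM, and TGFBI at 12.4, 16.4, 11.7 and 16.3 CPM. VTN, vitronectin, had 8, 9, 8 and 5 reads and was not tested.

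Matrix turnover was represented by the gelatinase MMP2 and by TIMP1, TIMP2 and TIMP3, inhibitors of such proteases. TIMP1 (chrX:47582313-47586789), the highest of them per length, was at 24.5, 30.2, 20.9 and 68.4 CPM. KO 2 alone stood above the rest, 3.28-fold above KO 1. The log2 fold change was 0.71 ± 0.50 (SE) with all libraries, 1.33 without KO 1 (adjusted p 0.00601, edgeR) and -0.39 without KO 2. MMP2 was among the most even of all genes described here, at 57.8, 61.7, 62.5 and 56.7 CPM, and its 95% interval ran from -0.60 to 0.60 on the log2 scale. TIMP2 was at 51.0, 35.8, 45.4 and 43.2 CPM. TIMP3 was scarce, at 0.610, 0.675, 0.327 and 0.380 CPM, lower in both KO libraries, with a log2 fold change of -0.84 ± 0.65 (SE).

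The integrin genes were dominated by ITGB1, the beta chain shared by the laminin, collagen and fibronectin receptors, at 54.0 RPKM on average. ITGA6, its laminin-binding partner, followed at 31.4 and ITGB5, a beta chain that pairs with ITGAV to bind vitronectin, at 22.3. ITGAV averaged 8.74, ITGA5 6.15, ITGA3 3.37 and ITGA2 1.28, and ITGA1 and ITGB8 were at 0.502 and 0.475. This order covers only the integrins among the 52 genes. ITGA7, from the list of other integrins below and named after its values were seen, averaged 15.3 RPKM, above ITGAV. ITGB3 had 5, 7, 3 and 1 reads, was not tested, and shares 51.6% of its exon bases with AC068234.1 on the same strand.

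ITGB1 was at 356, 352, 253 and 338 CPM, so both KO libraries were below both controls, KO 2 by a narrow margin. Its log2 fold change was -0.26 ± 0.27 (SE; 95% interval -0.86 to 0.34). ITGA6 was at 200, 193, 227 and 202 CPM, higher in both KO libraries, KO 2 by a narrow margin, with a log2 fold change of 0.12 ± 0.25 (SE). ITGB5 was at 156, 157, 106 and 157 CPM, so KO 1 alone was low. The ratio of ITGA6 to ITGAV per length stayed between 3.29 and 3.95. ITGAV, at 72.4, 64.0, 86.6 and 64.2 CPM, and ITGB8, at 6.78, 8.95, 5.20 and 7.84 CPM, overlapped between the groups.

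The collagen-binding alpha chains ITGA1 and ITGA2 lay on different sides. ITGA1 (chr5:52787896-52959210) had 502, 385, 175 and 231 reads, or 13.3, 10.8, 6.36 and 6.76 CPM. Of its exon bases, 5.6% overlap other genes on the same strand, PELO among them. Both KO libraries were well below both controls, and the log2 fold change was -0.88 ± 0.39 (SE; 95% interval -1.76 to 0.00). In edgeR its p was 0.0506 before adjustment and 0.997 after it, and the value stayed between -1.02 and -0.71 whichever library was left out. ITGA2 was at 7.16, 10.9, 10.1 and 12.3 CPM, with overlapping groups and a log2 fold change of 0.31 ± 0.40 (SE). Of the other alpha chains, ITGA5, the fibronectin receptor, was at 24.5, 63.0, 20.1 and 78.7 CPM, and ITGA3, a laminin receptor, at 24.4, 39.1, 19.2 and 49.5 CPM. In both, control 2 and KO 2 were high and control 1 and KO 1 low.

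THY1, CD44 and VIM mark the cell surface or the cytoskeleton. THY1, a surface glycoprotein found on human pluripotent stem cells as well as on fibroblasts, had the highest mean per length of all 52 genes over the 4 libraries, at 60.7 RPKM, though not the highest value in every library. It was at 296, 376, 429 and 337 CPM, with overlapping groups. CD44 (chr11:35138870-35232402), the receptor for hyaluronan, had 401, 384, 171 and 212 reads, or 10.6, 10.8, 6.22 and 6.20 CPM. The libraries of each group were nearly equal and the groups lay apart, with a log2 fold change of -0.79 ± 0.39 (SE; 95% interval -1.67 to 0.10). The unadjusted p was 0.0749 and the adjusted p 0.997 in edgeR, and leaving out any 1 library gave between -0.79 and -0.78. VIM, the intermediate filament vimentin, was at 106, 146, 82.9 and 342 CPM. KO 2 was 4.12-fold above KO 1, and the log2 fold change of 0.75 ± 0.58 (SE) became 1.45 without KO 1 (adjusted p 0.0017, edgeR) and -0.60 without KO 2. VIM shares 24.4% of its exon bases with opposite-strand genes, VIM-AS1 among them.

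**Figure D3:**
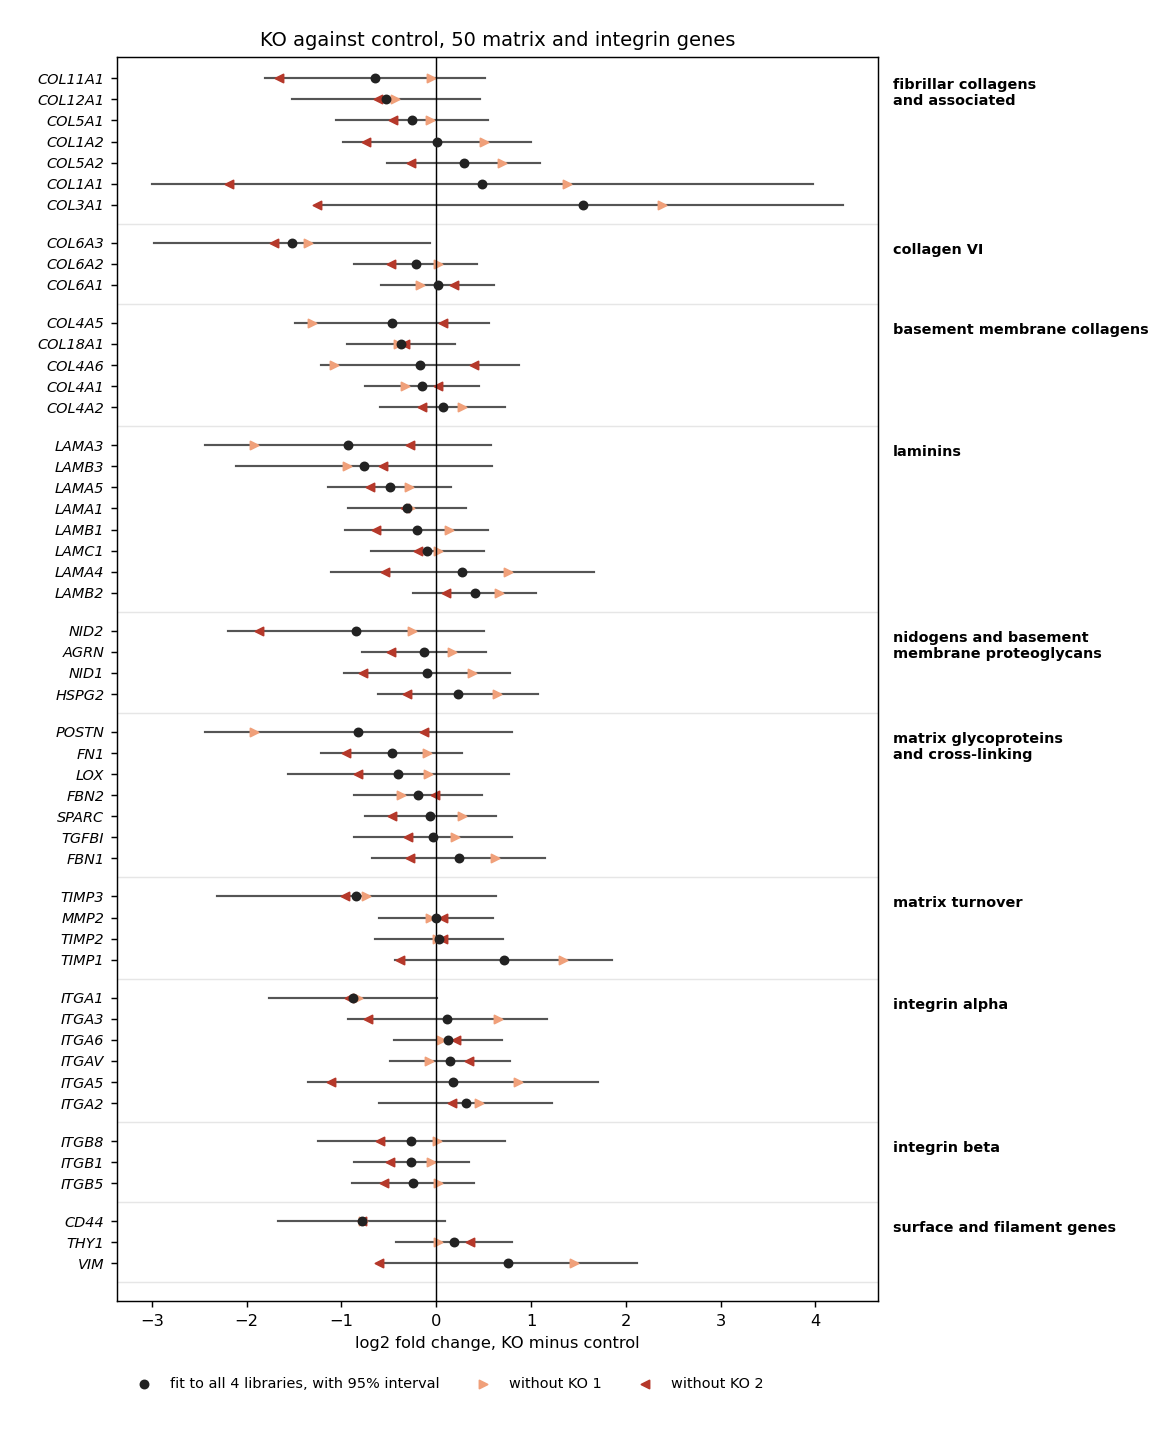
Log2 fold change (KO minus control) of the 50 tested genes with its 95% interval (black), grouped by class, and the value without KO 1 or without KO 2 (triangles). The interval of COL6A3, from -2.98 to -0.07, is the only 1 of the 50 that leaves out 0, and COL1A1 has the widest.

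The libraries within each group differed in these genes, and more in the KO group, which was also so over all genes at the level used below. Among the 38 of these genes that averaged 10 CPM or more, 9 (23.7%) were at least 2-fold higher in KO 2 than in KO 1, against 6.54% of all genes at that level. They were COL1A1, COL1A2, COL11A1, NID1, NID2, TIMP1, ITGA3, ITGA5 and VIM. COL4A5 and COL4A6, 2 of the 38 (5.26%), were at least 2-fold lower in KO 2 than in KO 1, against 5.39% of all genes. Control 2 was at least 2-fold above control 1 for 3 of the 38 (7.89%), COL1A1, ITGA5 and NID2, against 2.03% of all genes, and below it for 0 of the 38 against 0.696%. These thresholds were chosen after the data were seen, and the comparison of single libraries carries no test.

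**Figure D4:**
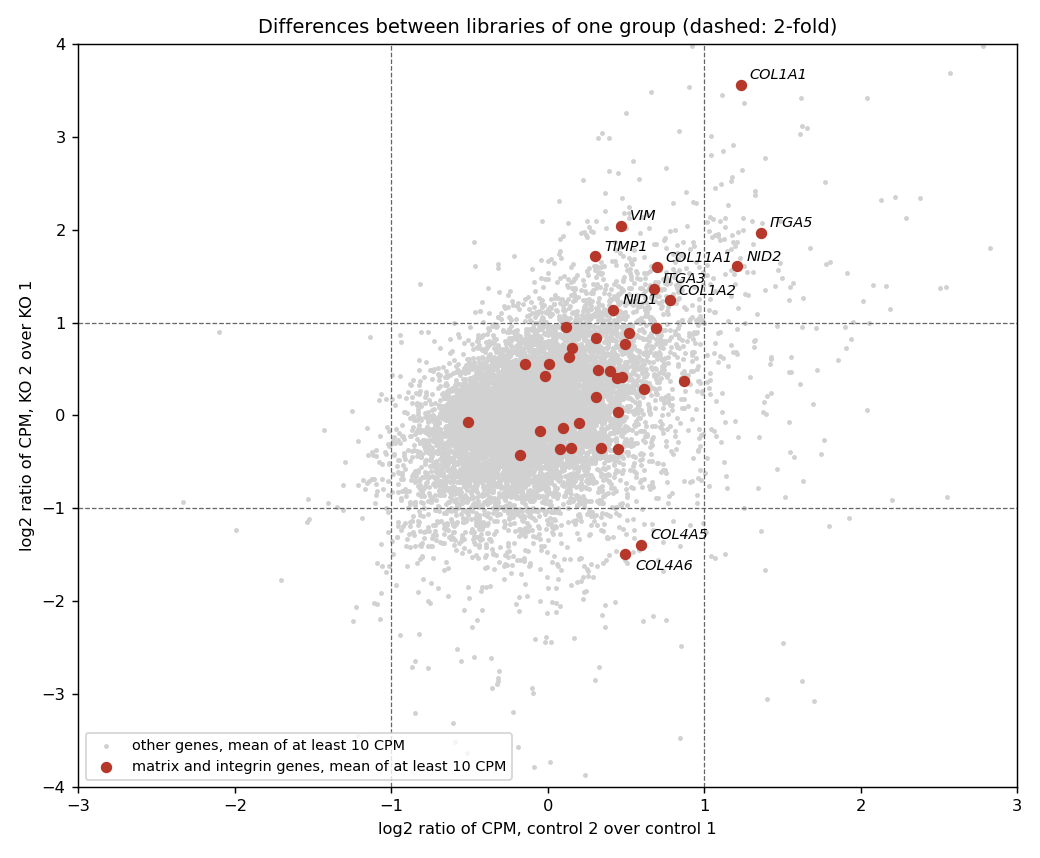
Log2 ratio of CPM in KO 2 over KO 1 against that in control 2 over control 1, for genes averaging 10 CPM or more. Red points are the matrix and integrin genes, grey points the other 9857 genes drawn, with 25 more outside the axes. Red points past 2-fold between the KO libraries are named, COL1A1 at the top and COL4A5 and COL4A6 at the bottom.

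Over all 50 tested genes, KO 1 was the lowest of the 4 libraries for 28 (56%), against 24.8% of all genes tested. Control 2 was the highest for 22 (44%), against 25.8%, and KO 2 was the highest for 17 (34%), against 33.4%. Control 2 was above control 1 for 41 (82%), against 51%, and KO 2 above KO 1 for 35 (70%), against 50%. The median log2 difference of the 50 genes from the control mean was -0.18 and 0.18 in the controls, -0.38 in KO 1 and 0.0051 in KO 2, while over all genes tested each library lay between -0.0066 and 0.0090. For 27 of the 50 genes the log2 fold change had opposite signs with KO 1 and with KO 2 as the only KO library. Without KO 1, 5 of them were called, VIM, TIMP1, COL1A1 and COL3A1 higher and COL4A5 lower, against 5.31% of all genes tested. Without KO 2, 3 were called, COL11A1, NID2 and COL1A1, all lower, against 0.927% of all genes. Without control 1, 0 were called, against 0.0197% of all genes, and without control 2 also 0, against 0.015%.

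**Figure D5:**
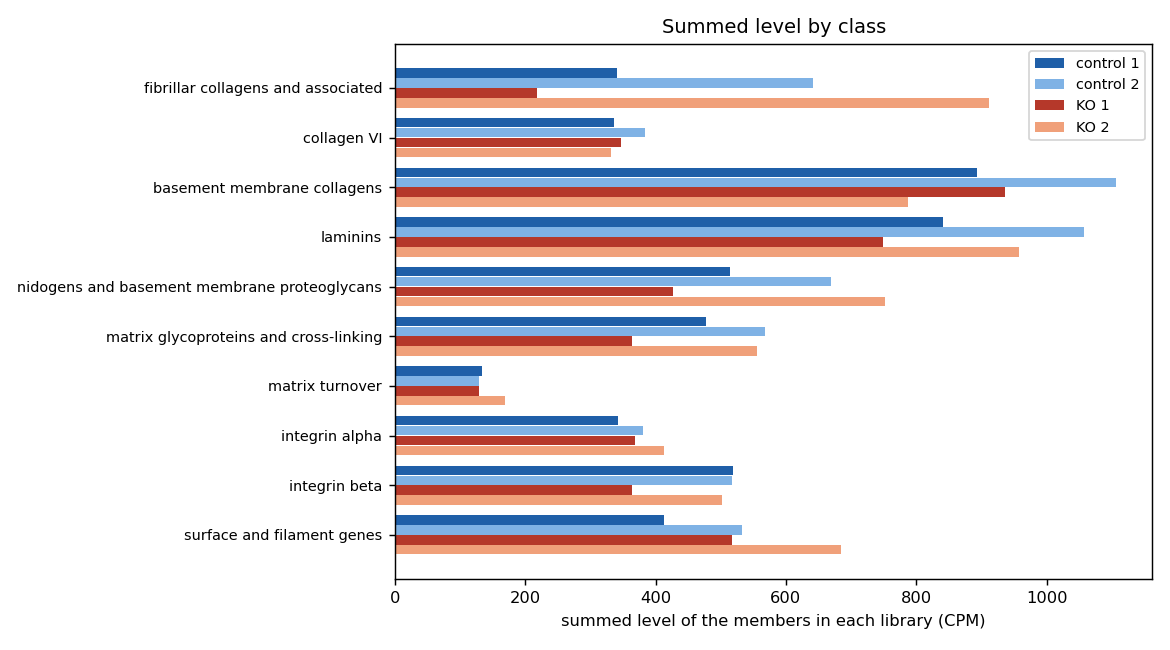
Summed CPM of the genes of each class in each library. The fibrillar collagens run from 218 CPM in KO 1 to 911 in KO 2, with the controls at 340 and 642. The sums of collagen VI lie between 331 and 384.

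Markers of other cells were read in the same libraries. Fibroblast and mesenchyme markers summed to 99.0, 126, 70.2 and 35.9 CPM, lowest in KO 2. Most of that sum was COL14A1, at 79.9, 93.98, 55.35 and 17.99 CPM, so the low sum in KO 2 rests largely on this gene. COL14A1 is also one of the other collagens counted in the next paragraph. PDGFRB, the next most abundant marker, was at 12.93, 24.71, 9.747 and 15.62 CPM, lowest in KO 1, as COL1A1 and VIM were. The scarcer PDGFRA, TWIST2 and DDR2 were lowest in KO 2. Of the 12 markers, 7 were below 1 CPM in every library, DCN, LUM, FAP and PRRX1 among them. All 10 pluripotency markers passed the filter on low counts and summed to 6641, 6686, 7202 and 5263 CPM, also lowest in KO 2. The abundant DNMT3B (1743, 1302, 1550 and 662 CPM) and PODXL (1649, 2266, 1794 and 1398 CPM) were lowest there. So were POU5F1, SALL4, ZFP42 and NANOG, the last at 61.2, 64.7, 46.2 and 19.1 CPM. LIN28A, LIN28B and EPCAM were not lowest in KO 2, and SOX2 was highest there, at 365, 314, 327 and 427 CPM. The endothelial list summed to 26.5, 25.5, 11.7 and 11.8 CPM, most of it in the controls from TEK (20.5, 18.5, 7.31 and 2.52 CPM), and the other 5 genes summed to 6.04, 7.04, 4.36 and 9.27 CPM, highest in KO 2. The endoderm list summed to 5.30, 6.95, 4.66 and 2.84. The trophoblast and amnion list, with CGA at 0 in all libraries, summed to 22.6, 36.2, 20.7 and 27.8, and the neural crest and glia list, with SOX10 at 0, to 127, 101, 73.6 and 87.0. Reads outside annotated genes were 8.40%, 10.8%, 7.41% and 4.59% of the counted alignments. The part of these differences in the results was not tested. In bulk RNA, fewer cells of a type and less RNA per cell cannot be told apart.

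Other genes of the same pathways gave no calls over all genes in edgeR's quasi-likelihood test. Of the 22 tested genes for collagen synthesis and assembly, 5 (22.7%) were higher and 2 (9.09%) lower in both KO libraries, against 15.8% and 16.3% of all genes tested, and 0 had an unadjusted p under 0.05. SERPINH1, the collagen chaperone, was at 480, 406, 551 and 795 CPM (log2 fold change 0.60 ± 0.28 SE, unadjusted p 0.0593), and PPIB was the most abundant per length, at 301, 202, 270 and 229 CPM. Of the 24 genes of the integrin adhesion complex, 7 (29.2%) were higher and 2 (8.33%) lower in both KO libraries, against the same 15.8% and 16.3%. FLNA, filamin A, which ties actin to integrins, was the most abundant at 1965, 2099, 2319 and 2343 CPM. NEDD9, an adhesion scaffold, was at 7.45, 16.6, 4.44 and 6.05 CPM, with an unadjusted p of 0.0402 in edgeR. SRC, an adhesion kinase named after its values were seen, was at 48.1, 40.1, 61.3 and 78.7 CPM, with an unadjusted p of 0.0442 in edgeR. The median log2 fold change was 0.14 in each of these lists.

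Of the 38 other collagens, laminins and integrins that were tested, both KO libraries lay below both controls for 11 (28.9%) and above them for 3 (7.89%), against 16.3% and 15.8% of all genes tested. With an unadjusted p below 0.05 there were 4 lower and 1 higher, and the median log2 fold change was -0.38. Over all genes tested, 3% were lower and 1.06% higher at that p. COL9A3, a cartilage collagen, was at 66.8, 105, 34.5 and 51.2 CPM, and COL26A1 was the most abundant per length at 100.1, 74.4, 96.5 and 118 CPM. Of 20 tested proteases and inhibitors, 3 (15%) had both KO values below the controls and 3 (15%) above, against 16.3% and 15.8% of all genes, with a median of -0.08. MMP14, the membrane protease that activates MMP2, was at 85.8, 70.9, 90.4 and 112 CPM, and SERPINE2, a protease inhibitor, at 78.3, 81.2, 50.8 and 41.1 CPM.

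Among the 26 tested non-integrin receptors, proteoglycans and related glycoproteins, 5 (19.2%) had both KO values below the controls and 2 (7.69%) above, against 16.3% and 15.8% of all genes, with a median of -0.05. At an unadjusted p below 0.05, 3 were lower (TNC, THBS1 and GPC3) and 1 was higher, DDR1. GPC4, a cell surface proteoglycan, was the most abundant per length, at 726, 489, 828 and 425 CPM. TNC, tenascin C, a matrix glycoprotein that modulates adhesion to fibronectin, was at 22.1, 25.8, 8.22 and 4.50 CPM. Both KO libraries were far below both controls, and its log2 fold change was -1.92 ± 0.41 (SE; 95% interval -2.85 to -1.002). Its adjusted p was 0.562 in edgeR, 0.00337 in DESeq2 and 0.00615 with the replicate number as a block, and it was 3.32e-05 without KO 1 and 0.0344 without KO 2. THBS1, thrombospondin 1, named, like DDR1 and GPC3, after its values were seen, was at 90.9, 533, 33.7 and 18.3 CPM. Its log2 fold change was -3.58 ± 0.86 (SE) with an adjusted p of 0.997 in edgeR and 2.8e-05 in DESeq2, and it was -1.81 without control 2, the library that holds most of its reads. Without control 1 it was -4.35 (adjusted p 0.0219, edgeR). DDR1, a collagen-binding receptor kinase, was at 102 ± 2.16 CPM in the controls (SD, n = 2) and at 152 and 193 CPM in the KO libraries, above both controls in each, with a log2 fold change of 0.77 ± 0.27 (SE; unadjusted p 0.0186, adjusted p 0.997, edgeR).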

How the data were processed

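Polyadenylated RNA was measured in 4 libraries, 2 per group, placed by their titles. Per the labels, RNA was taken with Trizol and a column with DNase and made into stranded mRNA libraries. The submitters' processing notes name HTSeq 0.11.0, STAR 2.6.0a, cutadapt 1.8.1 and FastQC 0.11.7, and the GRCh38 build. The deposited values are whole numbers with unequal library totals, and were taken as raw counts per gene. Per the labels, the data were quantile-normalised, which such values do not show, so quantile normalisation was tried as an alternative. Neither the annotation release nor the strand setting is given in the sources used here. Rows without a gene (14.4% to 20.3% of counted alignments) were left out.

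Genes were filtered with filterByExpr (minimum count 10), scaled by TMM and tested with edgeR 4.0.16 (quasi-likelihood, robust, R 4.3.3), two-sided, KO against control, with Benjamini-Hochberg adjustment over all genes tested and a threshold of 0.05. The SE is the log2 fold change over the square root of F, and intervals are 95%. The biological coefficient of variation was 36.3%. A chi-square test of replicate counts gave 61.5 per degree of freedom in control and 141 in KO, so no library was a copy. The test was also tried on simulated data, but the outcome is not given here and no statement rests on it. Exon lengths came from GENCODE 29, in which 93.8% of identifiers matched, and may differ from the authors' annotation. Alternatives were other scalings and filters, DESeq2 1.42.0, limma 3.58.1, a replicate block, a correction for GC content and length, and each library left out.

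The genes, their classes and the other lists were chosen with earlier results of these data known. Values in all libraries are given for the most abundant gene per length and the 2 smallest p in each class, for genes whose groups did not overlap with a change of at least 1.5-fold and a mean of at least 1 CPM, and for the collagen IV pairs. Other genes were named to complete a class, and from each other pathway list the most abundant gene and the one with the smallest p. Marker lists are given by their sums, with single markers named after their values were seen. Genes named beyond this are said to be so. Of 24 collagen synthesis genes listed, 1 had no matching identifier and was left out.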

Additional observations from a re-analysis of the deposited data

How the results depend on the processing

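Each group had 2 libraries, and the labels give nothing that tells culture, clone or batch apart. The number of genes called over all genes was 5 and became 60 with DESeq2, 76 with the replicate number as a block, 8 with no filter on low counts, 1 with quantile normalisation or the legacy quasi-likelihood fit, and 0 with upper-quartile factors, library size only, limma-voom or a mean CPM of at least 1. It ranged from 3 to 1096 when 1 library was left out. The number of matrix and integrin genes called was 0 in all 11 settings that keep the 4 libraries and ranged from 0 to 5 when 1 was left out. Genes lower in both KO libraries numbered 13 to 31, and genes higher in both 5 to 20, when 1 library was left out, since fewer samples then have to be apart. The same share over all genes is not given for these settings, so these ranges are not a result about these genes. With all libraries, the genes higher in both numbered 0 with upper-quartile factors. They numbered 1 with library size only, quantile normalisation, a mean CPM of at least 1 or the GC content and length correction. For these settings too, the share over all genes is not given. The median log2 fold change of the 50 genes ranged from -0.47 to 0.044 when 1 library was left out. The class medians changed sign in 26 of 150 values.

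The replicate numbers were not taken to pair the libraries, since no label says so and the correlation of same-numbered deviations, 0.37, comes from only 2 pairs. With the replicate block the signs changed for COL1A1 (-0.28), COL1A2 (-0.073), GPC4 (-0.0064) and PPIB (0.0089), and TNC and SLC35F2 passed the threshold.

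Of 748 log2 fold changes of single matrix and integrin genes under the alternatives, 672 kept their direction and their side of the threshold, 69 changed sign and 7 passed the threshold with the same sign. COL1A1 without KO 2 both changed sign and passed it, which makes 8 values past the threshold. For 20 of the 50 genes no alternative changed the sign, among them COL6A3, COL18A1, LAMA5, LAMB2, ITGA1, ITGA6, ITGB1 and CD44. Quantile normalisation turned COL1A1 (-0.40), COL1A2 (-0.18), COL6A1 (-0.11), COL4A2 (-0.036), TIMP2 (-0.034), ITGA3 (-0.057), ITGA5 (-0.056) and GPC4 (-0.12). Library size only turned COL1A2 (-0.16), COL6A1 (-0.11), COL4A2 (-0.078), TIMP2 (-0.086), ITGA3 (-0.045), ITGA5 (-0.0031) and GPC4 (-0.054). Upper-quartile factors turned COL1A2 (-0.092), COL6A1 (-0.071), COL4A2 (-0.024), TIMP2 (-0.049) and GPC4 (-0.031). With limma-voom COL1A1 was at -0.27, COL1A2 at -0.067, GPC4 at -0.011 and PPIB at 0.0067. Among genes with a mean CPM of at least 1, COL1A2 was at -0.047, COL6A1 at -0.024 and TIMP2 at -0.0088, and with the GC content and length correction COL6A1 was at -0.082 and TIMP2 at -0.035. The cause was not tested.

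Leaving out 1 library at a time gave these lowest and highest values for the genes that changed sign. Among collagens they were COL1A1 -2.19 to 1.38, COL1A2 -0.74 to 0.51, COL3A1 -1.26 to 5.09, COL5A1 -0.62 to 0.24, COL5A2 -0.27 to 0.70, COL6A1 -0.17 to 0.19, COL6A2 -0.48 to 0.018, COL4A1 -0.33 to 0.017, COL4A2 -0.15 to 0.32, COL4A5 -1.31 to 0.070 and COL4A6 -1.08 to 0.40. Among laminins, nidogens and proteoglycans they were LAMA4 -0.54 to 0.76, LAMB1 -0.64 to 0.14, LAMC1 -0.23 to 0.067, NID1 -0.78 to 0.37, HSPG2 -0.31 to 0.64, AGRN -0.47 to 0.16 and GPC4 -0.50 to 0.45. Among other matrix genes they were FBN1 -0.28 to 0.62, FBN2 -0.39 to 0.049, SPARC -0.47 to 0.27, TGFBI -0.29 to 0.19, MMP2 -0.062 to 0.067, TIMP1 -0.39 to 1.33, TIMP2 -0.20 to 0.32 and PPIB -0.27 to 0.31. Among integrins and VIM they were ITGA3 -0.72 to 0.65, ITGA5 -1.11 to 1.01, ITGAV -0.074 to 0.35, ITGB5 -0.55 to 0.016, ITGB8 -0.59 to 0.0092 and VIM -0.60 to 1.45.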
